A study of Homo sapiens with 8 samples.

Results

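IMR90 fibroblasts that had received inflachromene (ICM) for 3 days were compared with control IMR90 cells in their factory RNA, using the 2 libraries labelled ICM 3 days and the 2 labelled young, which are 4 of the 8 libraries of the series. IMR90 is a line of human fetal lung fibroblasts that divides for a limited number of passages and then enters replicative senescence. ICM is a small molecule that binds the high mobility group B proteins HMGB1 and HMGB2, and it was used at 10 µM. The control label states no vehicle, and neither group carries a transgene or an altered allele. Factory RNA is the RNA that stays with the transcription factories, clusters of active RNA polymerase II, after nuclei have been isolated and loose chromatin has been digested away, so it is enriched for transcripts in the making. The counts nevertheless cover exons only and can hold spliced RNA, and the labels name a poly(A) selection. Whether the libraries of a group came from separate cultures is not stated, so the p-values measure the spread between these libraries, which may be technical. In bulk RNA, a smaller share of cells that express a gene cannot be told apart from less RNA in each cell.

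Proliferating cells copy their DNA in S phase, with histones made at the same time to package it, and separate the copies in mitosis. Genes driven by the E2F factors serve replication, and another set, controlled through the cell cycle homology region (CHR) and CCAAT boxes, serves mitosis. When p53 raises the CDK inhibitor p21, these genes are repressed and the cell stops dividing. Arrested fibroblasts often alter the matrix they secrete, their metabolism and their inflammatory genes, which is why these groups were examined here.

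Of 28265 genes, 15692 had enough reads to be tested, and 7485 of the others had at least 1 count. The cutoffs for differential expression were an absolute log2FC (the log2 of the ratio of ICM over control) over 0.6 and an adjusted p under 0.05. After 3 days of ICM, 1389 genes (8.85% of those tested) were higher and 2067 (13.2%) were lower. The decreases were also the larger changes: 169 genes fell by more than 3 on the log2 scale, against 55 that rose by more than 3, and the median log2FC was −1.19 among lower and 0.93 among higher genes. With counts scaled to library totals in place of TMM, a scaling that assumes most genes are unchanged, the numbers became 1785 and 1767, so the share of higher genes among all called moved from 40.2% to 50.25%. Without ICM replicate 1, 851 genes were higher and 1450 lower. At the cutoff itself lay COQ10B (log2FC 0.60031) and PALM (−0.60011) just inside, and CFAP36 (0.5997) and TNIK (−0.59931) just outside.

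The libraries held between 12095123 and 21230563 counted read pairs. Levels are given as CPM, the count scaled to 1000000 of the TMM-normalized total, in the order control replicate 1, control replicate 2, ICM replicate 1 and ICM replicate 2. The median gene differed by 0.21 (log2) between the control libraries and by 0.16 between the ICM libraries, and Pearson's r of log2 levels across genes was 0.985 and 0.990 within the groups and at most 0.946 between them. In all but 2 differentially expressed genes, MIR663A and MIR663B, both ICM libraries lay on the same side of both control libraries. These genes were called from the same libraries, so the selection itself favors such separation. MIR663A was counted at 504, 8220.4, 644 and 899.6 CPM, so control replicate 2 stood alone, and its log2FC of −2.50 became 0.59 without that library (for MIR663B, −3.09 became 0.051). The 13 lung fibroblast markers tested of 14 included COL1A1, COL1A2 and PDGFRA. Their summed level was 25880 to 26410 CPM in control and 14760 to 16640 CPM after ICM, and 7 of the 13 fell. S100A4, by contrast, stayed below 1 CPM in all libraries. Markers of most other cell types were low, with sums of at most 197 CPM for endothelial, 104 CPM for epithelial and 22.2 CPM for blood cell genes. Among the latter CD68, which fibroblasts also carry in their lysosomes, rose from 5.35 and 4.26 to 20.6 and 15.9 CPM (log2FC 1.92). Epithelial KRT18 and KRT19 were among the genes that fell. Smooth muscle and pericyte markers, among them ACTA2, MYH11 and CNN1, summed to 1052 and 894 CPM in control and 264 and 245 CPM after ICM, and 6 of these 8 were lower.

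**Figure D1:**
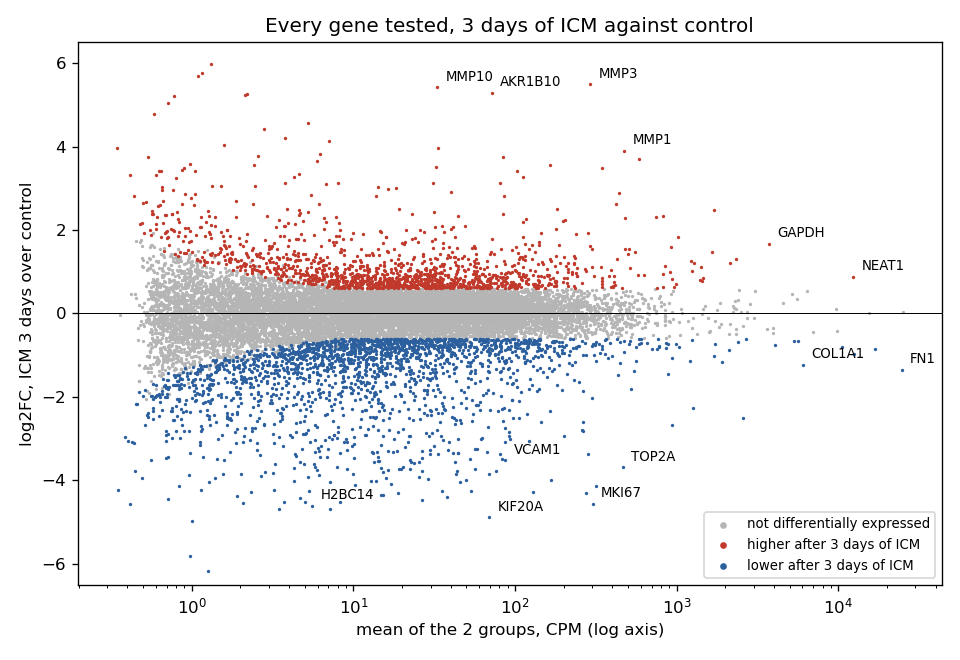
Each point is a gene, with its mean level in CPM on a log axis and its log2FC after 3 days of ICM on the vertical axis; 15688 of the 15692 genes tested are drawn. Differentially expressed genes are red (higher) or blue (lower). MMP3, MMP10 and AKR1B10 lie highest among the well-counted genes, and KIF20A and MKI67 are among the lowest. FN1, at the far right, fell by 1.35 on the log2 scale.

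Most genes of cell division fell. In 8 lists covering histones, cyclins, E2F factors, kinetochores, replication, nucleotide supply, recombination and condensin, 184 of the 217 genes tested were lower and 1 was higher, where 13.2% and 8.85% of all genes were. They made up 8.90% of all lower genes. MKI67, the proliferation antigen Ki-67 that coats mitotic chromosomes (chromosome 10 of hg19, 129894925 to 129924687), was counted at 543, 614, 21.6 and 27.6 CPM. Both ICM libraries lay far below both controls, with a log2FC of −4.56 (SE 0.16, adjusted p = 1.06e-08 by edgeR). KIF20A, a kinesin of the central spindle in cytokinesis (chromosome 5, 137514801 to 137523409), had 139, 128, 4.78 and 4.16 CPM and the largest fall of any gene above 10 CPM in control, a log2FC of −4.89 (SE 0.16, adjusted p = 6.16e-09).

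Kinases and cyclins that drive S phase and mitosis were lower in 21 of 22 cases, with a median log2FC of −3.03. BUB1, a kinase of the spindle checkpoint, went from 98.8 and 104 to 4.92 and 5.77 CPM (log2FC −4.25), and NEK2, a centrosome kinase, from 15.1 and 11.9 to 0.835 and 0.805 CPM (−4.03). PLK1, which starts mitotic entry, went from 48.8 and 45.4 to 3.99 and 3.96 CPM (−3.57). Genes of cyclin B also fell: CCNB1 from 96.3 and 97.2 to 8.30 and 8.85 CPM (−3.50) and CCNB2 from 38.2 and 36.9 to 3.85 and 4.29 CPM (−3.21).

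At the kinetochore, the protein plate by which chromosomes hold the spindle, 26 of 30 genes fell with a median log2FC of −2.58. CENPA, the histone H3 variant that marks centromeres, dropped from 5.82 and 7.43 to 0.185 and 0.335 CPM (−4.69). CENPF went from 524 and 517 to 25.0 and 27.7 CPM (−4.30), KNL1 from 229.6 and 263 to 11.7 and 13.9 CPM (−4.27), and NUF2, part of the NDC80 complex, from 29.0 and 29.4 to 1.34 and 1.54 CPM (−4.34). MIS12 and NSL1, subunits of the MIS12 complex, were not differentially expressed, at −0.28 and −0.41. The motor KIF18B fell from 53.7 and 48.5 to 2.23 and 2.35 CPM (−4.48).

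Promoters of the mitotic genes are shown because the letters of their control elements are there to read. They come from RefSeq promoter sequences (GRCh38.p14), matched by symbol for 11584 of the tested genes, and were searched over 250 bases before the start on both strands for CHR (TTTGAA) and CCAAT. Each line gives the last 120 bases before the start, 5′ to 3′ on the gene's strand, with either motif in capitals.
PLK1 (chr16:23678769-23678888, + strand): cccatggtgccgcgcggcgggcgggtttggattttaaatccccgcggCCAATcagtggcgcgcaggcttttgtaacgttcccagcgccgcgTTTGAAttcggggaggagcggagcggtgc
CCNB2 (chr15:59105026-59105145, + strand): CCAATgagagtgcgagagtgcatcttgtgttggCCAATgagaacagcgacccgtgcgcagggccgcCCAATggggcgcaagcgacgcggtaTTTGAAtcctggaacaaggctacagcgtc
MKI67 (chr10:128126424-128126543, − strand): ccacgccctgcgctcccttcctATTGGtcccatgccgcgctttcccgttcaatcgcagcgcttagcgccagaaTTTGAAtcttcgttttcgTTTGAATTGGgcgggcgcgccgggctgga
In all 3, a CHR begins at position −29 from the start, and in MKI67 it shares its last base with a CCAAT on the other strand at −24. CHR and CCAAT together occurred in 26.7% of the 15 promoters of the S phase and mitosis list, 19.2% of the 26 of the kinetochore list, 7.76% of those of all lower genes, 3.31% of higher genes and 3.63% of all genes tested. Such a match is a description of the letters and does not show binding.

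Replication-dependent histone genes, short genes without introns that are transcribed in S phase, were lower in 53 of 55 cases, with a median log2FC of −3.01 and none higher. Another 7 of the 62 listed had too few counts, 6 of them with none in any of the 4 libraries. H2AC11, encoding a core H2A (chromosome 6, 27100817 to 27101314), had 31.0, 25.4, 1.34 and 1.41 CPM, a log2FC of −4.36 (SE 0.23, adjusted p = 5.19e-08). H2BC7 went from 16.2 and 15.5 to 0.649 and 0.738 CPM (−4.51) and H4C13 from 10.6 and 7.18 to 0.371 and 0.469 CPM (−4.42). H2BC14 had 12.6, 8.86, 0.556 and 0.268 CPM, and its log2FC of −4.61 became −5.29 without ICM replicate 1. All 55 had a negative log2FC, the smallest being −0.44. Histone genes that are expressed outside S phase moved less, with 3 of 12 lower (25.0%, against 13.2% of all genes) and a median of −0.31. Among them H2AZ1 fell from 79.8 and 70.3 to 39.0 and 29.6 CPM (−1.13) and H2AX, whose phosphorylated form marks DNA breaks, from 22.2 and 18 to 10.1 and 9.12 CPM (−1.06), while MACROH2A1 was at 80.9, 80.6, 82.1 and 74.2 CPM. Since histone genes of the first kind are concentrated on chromosome 6, 18.7% of its tested genes were lower, and 13.8% without them.

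The promoters of H2BC14 and H2AC11 are given for their CCAAT boxes and for the TATA box, searched as TATAAA. Both motifs are in capitals.
H2BC14 (chr6:27814902-27815021, + strand): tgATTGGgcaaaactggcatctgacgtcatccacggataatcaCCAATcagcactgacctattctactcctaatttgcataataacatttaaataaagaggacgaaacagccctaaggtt
H2AC11 (chr6:27132923-27133042, + strand): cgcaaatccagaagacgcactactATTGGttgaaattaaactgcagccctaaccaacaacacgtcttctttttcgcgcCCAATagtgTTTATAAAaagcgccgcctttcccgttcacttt
The 120 bases of H2BC14 hold CCAAT on either strand, at −118 and −77, and those of H2AC11 at −96 and −42, followed by overlapping TATA matches on both strands at −33 and −31. Of the 50 histone promoters found, 88.0% held CCAAT, against 34.8% of all promoters searched, and 68.0% held TATA, against 6.25%.

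Replication genes fell less steeply than mitotic ones, with 37 of 44 lower and a median log2FC of −1.52. MCM10, which helps to open the origin, went from 23.9 and 24.0 to 1.95 and 2.88 CPM (−3.34), and POLE2, a subunit of DNA polymerase epsilon, from 10.6 and 12 to 0.881 and 1.68 CPM (−3.19). MCM6, part of the replicative helicase, went from 77.8 and 77.5 to 13.8 and 12.6 CPM (−2.55), and GINS2, which binds that helicase, from 12 and 12.8 to 2.92 and 3.02 CPM (−2.06). PCNA, the sliding clamp, was at 63.5, 61.2, 50.1 and 44.6 CPM. Its log2FC of −0.40 (SE 0.13, adjusted p = 0.0438) did not reach the cutoff. The promoters of MCM6 and GINS2 follow, with E2F motifs (TTTGGCGC, TTTCCCGC, TTTGCCGC or TTTCGCGC) in capitals.
MCM6 (chr2:135876444-135876563, − strand): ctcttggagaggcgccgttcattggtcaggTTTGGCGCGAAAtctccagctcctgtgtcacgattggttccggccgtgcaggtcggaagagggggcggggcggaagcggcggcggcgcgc
GINS2 (chr16:85688955-85689074, − strand): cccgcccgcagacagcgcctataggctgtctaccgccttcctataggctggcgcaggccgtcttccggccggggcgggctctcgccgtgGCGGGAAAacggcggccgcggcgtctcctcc
MCM6 holds overlapping matches on opposite strands at −90 and −86, and GINS2 holds 1 at −31. E2F motifs were in 30% of the 40 replication promoters, against 4.22% of all promoters, and CHR was in none of the 40, against 9.26% of all.

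Enzymes that make deoxynucleotides were lower in 9 of 12 cases. RRM2, the S phase subunit of ribonucleotide reductase, fell from 169 and 163 to 19.4 and 21.9 CPM (−3.01), whereas its p53-controlled counterpart RRM2B rose from 28.1 and 28.6 to 87.1 and 82.0 CPM (1.58). Thymidine kinase TK1 fell from 31.9 and 24.9 to 5.01 and 4.96 CPM (−2.51). In homologous recombination and the Fanconi anemia pathway, which repair breaks and crosslinks, 20 of 26 genes were lower. FANCD2 fell from 80.8 and 80.2 to 7.37 and 8.45 CPM (−3.35), the helicase BLM from 24.1 and 27.0 to 2.32 and 2.82 CPM (−3.32) and BRCA2 from 117 and 119.7 to 16.5 and 19.2 CPM (−2.73). Condensin and topoisomerase II, which compact mitotic chromosomes, were lower in 10 of 11 cases. TOP2A went from 839 and 887 to 60.8 and 73.5 CPM (−3.69). TOP2B, the form that non-dividing cells also express, was at 292, 303, 261 and 249.9 CPM (−0.22, adjusted p = 0.194).

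**Figure D2:**
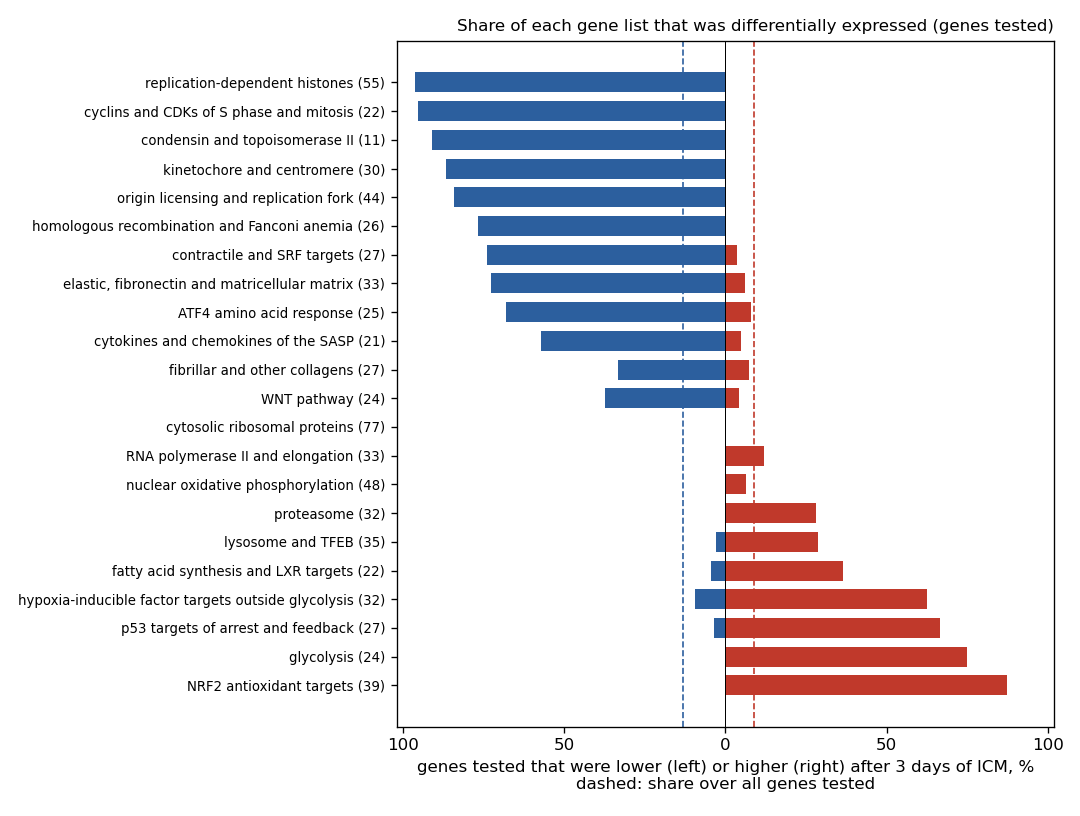
For 22 gene lists, the bars give the share of tested genes that were lower (blue, left) or higher (red, right) after 3 days of ICM, and the dashed lines give the shares over all genes tested, 13.2% and 8.85%. Number of genes tested in brackets. Histones, cyclins and condensin lie above 90% lower, NRF2 targets at 87.2% higher, and no cytosolic ribosomal protein gene was called.

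The inhibitors and cyclins of the G1 phase moved in both directions, with log2FC from −2.88 to 2.63 over the list. Of 14 G1 cyclins and CDK inhibitors, 3 were higher (21.4%) and 4 lower (28.6%), where 8.85% and 13.2% of all genes were. Without control replicate 2, CDKN2B (log2FC 0.79) and CCND3 (0.94) came to 0.56 and 0.58, short of the cutoff. CDKN2C, encoding the inhibitor p18, fell from 9.39 and 8.69 to 1.34 and 1.07 CPM (−2.88), and CCND2 from 24.5 and 29.0 to 10.2 and 8.52 CPM (−1.51). CDKN2A, the p16 gene and a marker of senescence, had 3.92, 2.59, 4.08 and 2.75 CPM, and the groups overlapped (log2FC 0.07, SE 0.31, adjusted p = 0.899). CCND1 (463, 376, 385 and 363 CPM) and CDK6 (309, 307, 263 and 298 CPM) were not differentially expressed. Among E2F and RB family genes 8 of 17 were lower (47.1%). E2F8, a repressor that is itself an E2F target, fell from 8.62 and 10.8 to 0.417 and 0.402 CPM (−4.53), E2F2 from 6.18 and 6.01 to 0.556 and 0.402 CPM (−3.62) and E2F1 from 10.3 and 8.44 to 2.23 and 3.15 CPM (−1.82). RBL1, encoding p107, fell from 49.8 and 51.6 to 13.1 and 12.6 CPM (−1.98), whereas RB1 itself was at 85.7, 85.4, 75.1 and 78.2 CPM (−0.16).

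Among chromatin proteins the changes were decreases for the most part. Of 13 genes for high mobility group and related proteins, 6 were lower (46.2%, against 13.2% of all genes). HMGB1, a target of ICM that bends DNA in the nucleus and acts as an alarm signal outside the cell, fell from 115 and 109.7 to 65.8 and 57.4 CPM (log2FC −0.87, SE 0.13, adjusted p = 0.00038), and HMGB2 fell by 3.08 (SE 0.19). HMGA2, which loosens chromatin in embryonic and dividing cells, fell from 145 and 138 to 26.6 and 32.8 CPM (−2.26). HMGA1 was at 146, 98.8, 155 and 151 CPM, with a log2FC of 0.32 that became 0.64 and passed the test without control replicate 1. LMNB1, the lamin B1 gene whose loss is widely used as a mark of senescence (chromosome 5, 126112315 to 126172712), had 81.3, 79.4, 5.10 and 6.10 CPM, a log2FC of −3.85 (SE 0.16, adjusted p = 1.67e-08). SYNE2, which links the nuclear envelope to the cytoskeleton, fell from 213 and 223 to 23.8 and 28.8 CPM (−3.05) while its relative SYNE1 rose from 1110.2 and 992 to 1635 and 1960.1 CPM (0.77). LMNA, for lamins A and C, had 547, 356, 617 and 598 CPM (0.43), and 0.78 without control replicate 1. EZH2, the methyltransferase of polycomb complex 2, fell from 40.8 and 44.3 to 8.86 and 8.58 CPM (−2.28), and UHRF1 and DNMT1, which copy DNA methylation after replication, had log2FC of −2.20 and −1.23. Of 15 genes for CTCF and cohesin, the ring that holds sister chromatids and folds DNA, 5 fell (33.3%, against 13.2% of all genes). SMC3 (140.2, 122, 79.8 and 69.1 CPM, −0.82) was among them. CTCF, the partner of cohesin at loop anchors, had 46.2, 51.8, 32.7 and 32.4 CPM (−0.59), short of the cutoff, and −0.66 without control replicate 1.

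Most p53 targets rose, with 18 of 27 higher and 1 lower (median log2FC 0.91, range −0.66 to 2.63). FDXR, a mitochondrial reductase, rose from 12.9 and 10.3 to 41.8 and 34.8 CPM (1.72), SPATA18, which acts in mitochondrial quality control, from 6.71 and 5.35 to 22.2 and 25.1 CPM (1.96), and ZMAT3, an RNA-binding tumor suppressor, from 52.8 and 61.3 to 100.2 and 109 CPM (0.88). SESN2, which ATF4 also drives, fell from 55.4 and 54.6 to 35.4 and 34.0 CPM (−0.66), or by 0.59 and thus short of the cutoff under library totals. Of 21 apoptosis regulators 4 were higher and 4 lower. BAX, which permeabilizes mitochondria, rose from 21.7 and 17 to 62.5 and 54.9 CPM (1.59), BBC3, another p53 target of cell death, had 4.64, 3.76, 6.17 and 4.22 CPM (0.31, adjusted p = 0.425), and the inhibitor of apoptosis BIRC3, which NF-κB drives, fell from 7.37 and 4.85 to 0.556 and 1.07 CPM (−2.97).

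Genes under NRF2, the factor that KEAP1 holds in check until electrophiles or oxidants modify it, rose together. Of 39 tested, 34 were higher and none lower, with a median log2FC of 1.48, against 8.85% of all genes. AKR1B10 (chromosome 7, 134212319 to 134226164) had 3.92, 3.17, 142 and 139 CPM, a 39.0-fold rise (log2FC 5.29, SE 0.17, adjusted p = 6.16e-09). AKR1C1, a ketosteroid reductase, rose from 108 and 58.5 to 1116 and 1070.4 CPM (3.71), and AKR1C2 from 14.9 and 7.77 to 157 and 156 CPM (3.76). These genes are nearly identical, and read pairs that fit both equally well were not counted. NQO1, a quinone reductase, rose from 291 and 249 to 1439.7 and 1305 CPM (2.35).

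HMOX1, which breaks down heme, had 36.2, 14.8, 325 and 281 CPM, and its log2FC of 3.55 (SE 0.30, adjusted p = 2.67e-06) was 4.37 without control replicate 1. The glutathione branch rose: SLC7A11, the cystine importer, from 844 and 801 to 1623 and 1735 CPM (1.03), the synthesis subunits GCLC (2.03) and GCLM (69.7, 72.3, 339.9 and 332 CPM, 2.24), and glutathione reductase GSR from 71.0 and 59.7 to 229 and 199 CPM (1.71). In the thioredoxin branch, TXNRD1 rose from 1396 and 1257 to 3474 and 3134 CPM (1.32), TXN from 60 and 60.5 to 246 and 211 CPM (1.92) and SRXN1, which restores peroxiredoxins, from 25.1 and 17.5 to 180.3 and 121 CPM (2.81). Among enzymes that supply NADPH, PGD rose by 1.44 and ME1 by 1.64. NFE2L2, the NRF2 gene, was at 186, 238, 222 and 229 CPM (0.09, adjusted p = 0.665), whereas KEAP1 rose from 41.0 and 31.4 to 87.3 and 70.5 CPM (1.12). SQSTM1, the autophagy receptor that binds KEAP1, rose from 649 and 389 to 3061 and 2702 CPM (2.47). NMRAL2P, a transcribed pseudogene under NRF2, rose from 5.41 and 2.42 to 64.4 and 62.1 CPM (3.96, and 4.71 without control replicate 1).

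Antioxidant response elements (TGACNNNGC) in the promoters of 3 of these genes are in capitals below.
TXNRD1 (chr12:104215659-104215778, + strand): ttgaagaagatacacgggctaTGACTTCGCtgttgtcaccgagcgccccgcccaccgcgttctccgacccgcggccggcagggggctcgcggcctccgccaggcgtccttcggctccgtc
GCLM (chr1:93909431-93909550, − strand): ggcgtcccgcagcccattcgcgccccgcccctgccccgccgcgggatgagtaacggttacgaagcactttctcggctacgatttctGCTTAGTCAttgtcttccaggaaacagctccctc
ME1 (chr6:83431052-83431201, − strand): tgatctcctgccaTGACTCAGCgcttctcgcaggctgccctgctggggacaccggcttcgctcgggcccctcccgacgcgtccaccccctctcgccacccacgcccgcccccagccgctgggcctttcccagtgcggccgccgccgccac
They begin at −99, −34 and −137, the last within a window of 150 bases, and that of GCLM lies on the opposite strand. Of 27 promoters of NRF2 targets 18.5% held the motif, against 15.1% of the promoters of all higher genes, 9.07% of those of lower genes and 12% overall. Only 250 bases were searched, and no match says nothing of elements farther away.

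**Figure D3:**
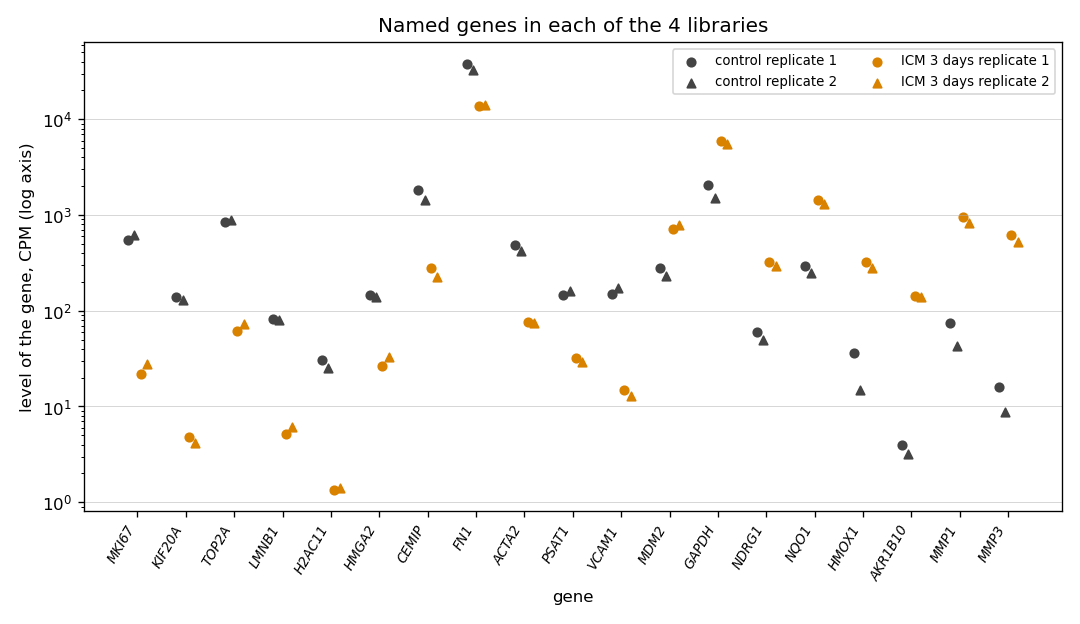
Levels of 19 named genes in each library, in CPM on a log axis, with control libraries in grey and ICM libraries in orange, replicate 1 as circles and replicate 2 as triangles. In every gene both ICM libraries lie on the same side of both controls. The genes are a selection, so their separation does not stand for all genes. The control replicates of HMOX1 (36.2 and 14.8 CPM) and MMP3 (16.1 and 8.77 CPM) lie apart.

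Glycolysis rose as a group, with 18 of 24 genes higher, none lower and a median log2FC of 1.18. GAPDH, often used as a reference gene, went from 2059.5 and 1508 to 5869.5 and 5508 CPM (log2FC 1.67, SE 0.17, adjusted p = 1.30e-05), and PKM, the last enzyme of the pathway, from 1529 and 1042 to 3050.5 and 2934 CPM (1.22). The brain-type aldolase ALDOC rose from 6.54 and 6.27 to 57.7 and 54.1 CPM (3.12). The glucose transporter SLC2A1 went from 333 and 256 to 830.2 and 797 CPM (1.47), and PFKFB3 and PFKFB4, which make the activator of phosphofructokinase, rose by 1.64 and 2.02. PDK1, which keeps pyruvate out of the mitochondria, rose from 52.8 and 68.7 to 139 and 163 CPM (1.32), and LDHA, which makes lactate, from 514 and 539 to 1135 and 1184 CPM (1.14). Among hexokinases, HK1 rose by 0.89, HK2 was short of the cutoff (112, 90.1, 130.3 and 139.8 CPM, 0.42), and HKDC1, a related hexokinase domain protein, rose from 1.01 and 0.418 to 13.7 and 13 CPM (4.13, and 4.98 without control replicate 1).

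Many of these genes are targets of the hypoxia-inducible factors, so a list of such targets outside glycolysis was drawn up after the glycolysis values had been seen, and is not independent of them. Of its 32 genes tested 20 were higher and 3 lower, with a median log2FC of 0.78. NDRG1, a stress-induced gene, rose from 59.4 and 49.9 to 320.2 and 297 CPM (2.50), BNIP3, which marks mitochondria for removal, from 27.0 and 27.1 to 159 and 123 CPM (2.38), GBE1, a glycogen branching enzyme, from 177 and 146 to 813 and 773 CPM (2.30), and VEGFA, the angiogenic factor, from 160.4 and 149 to 318 and 275 CPM (0.94). HIF1A was at 821, 719, 1078 and 1052 CPM (0.47, below the cutoff) and shares 1338 exon bases with antisense transcripts that the unstranded counts cannot separate. DDIT4, a target of both HIF and ATF4, fell from 51.5 and 33.9 to 12.7 and 11.2 CPM (−1.84).

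Most genes of the ATF4 amino acid response fell, with 17 of 25 lower, 2 higher and a median log2FC of −1.29. The serine pathway fell, PHGDH from 166 and 154 to 49.2 and 44.9 CPM (−1.77) and PSAT1 from 147 and 159 to 32.4 and 29.5 CPM (−2.31). So did PCK2, a mitochondrial gluconeogenic enzyme (96.1, 98.2, 22.7 and 19.9 CPM, −2.18), and the amino acid transporters SLC7A1 (219.9, 219.6, 63.2 and 62.8 CPM, −1.80) and SLC7A5 (−1.58). ATF4 itself had 164, 129.7, 149 and 119.8 CPM (−0.13, adjusted p = 0.558). ATF3 and CEBPB were the 2 that rose, ATF3 from 11.8 and 8.94 to 40.5 and 31.1 CPM (1.78). In the endoplasmic reticulum the chaperone HSPA5 fell from 584 and 654 to 263 and 277 CPM (−1.20), and the small heat shock protein gene HSPB8 rose from 11.4 and 9.77 to 39.7 and 34.9 CPM (1.81). Of 19 chaperone genes 3 were higher (15.8%) and 2 lower (10.5%), where 8.85% and 13.2% of all genes were. DESeq2 called 2 in each direction. Their median log2FC was 0.11, and 0.0039 to 0.28 with a library left out.

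Lipid and lysosome genes rose in part. Of 22 genes of fatty acid synthesis and LXR targets 8 were higher, led by the desaturase FADS1 (75.1, 66.5, 348 and 307 CPM, 2.21), and ABCA1, the cholesterol exporter that LXR induces, rose from 158 and 149 to 332 and 322 CPM (1.09). Of 25 cholesterol genes 5 were higher (3 to 7 with a library left out). NPC1, which moves cholesterol out of lysosomes, rose from 94.7 and 81.5 to 209.5 and 203 CPM (1.23). Lysosomal genes were higher in 10 of 35 cases (8 to 14 with a library left out), among them the cathepsins CTSL (61.6, 36.2, 193 and 157 CPM, 1.83) and CTSD (1.06). GLB1, which encodes the β-galactosidase stained in senescence, had 60.3, 51.3, 71.5 and 65.1 CPM (0.29, adjusted p = 0.139).

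Abundant matrix genes fell. FN1, fibronectin (chromosome 2, 216225163 to 216300793), had 38077, 32758, 13734 and 14078 CPM, the largest difference of any tested gene in CPM, with a log2FC of −1.35 (SE 0.15, adjusted p = 3.82e-05). Of 33 genes of elastic, fibronectin and matricellular matrix 24 were lower and 2 higher, with a median log2FC of −1.13. In the elastic fiber, the fibrillin FBN2 fell from 1968 and 2189 to 430.4 and 436 CPM (−2.26), FBN1 by 0.69, fibulin FBLN1 from 143 and 159 to 24.0 and 21 CPM (−2.74) and elastin ELN from 8.56 and 3.76 to 0.371 and 0.268 CPM (−4.23, and −3.48 without control replicate 1). SPP1, osteopontin, was among the 2 that rose and is listed at 0 in both control libraries.

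Of 27 collagens 9 were lower (33.3%) and 2 higher (7.41%), where 13.2% and 8.85% of all genes were. Their median log2FC was −0.30, and −0.53 to −0.20 with a library left out. COL1A1, the chain that forms most of type I collagen, fell from 8076 and 8885 to 3672 and 3539.5 CPM (−1.23), COL6A3 from 17209 and 16104 to 8505 and 8349 CPM (−0.98) and the basement membrane zone collagen COL15A1 from 357 and 353 to 47.8 and 44.1 CPM (−2.95). COL1A2, the partner of COL1A1, fell by 0.66, or by 0.59 under library totals by 0.58 without control replicate 1 and by 0.52 without ICM replicate 2, all short of the cutoff. COL3A1 had 3194, 3020.0, 3097 and 2682 CPM, and the groups overlapped (−0.10, adjusted p = 0.614). In the other direction COL7A1, the anchoring fibril collagen, rose from 518 and 372 to 1668 and 1532 CPM (1.84), and NID2, nidogen 2, from 991 and 761 to 2533 and 2296 CPM (1.46), while its relative NID1 fell from 269.9 and 291 to 85.3 and 84.3 CPM (−1.73). NID2 shares 1083 exon bases with RTRAF. Among the collagen-modifying enzymes the lysyl hydroxylase PLOD2 rose from 273 and 223 to 1331 and 1144 CPM (2.32) and the prolyl hydroxylase P4HA1 by 1.19, both also on the hypoxia list, whereas the crosslinking oxidases LOX and LOXL1 had log2FC of −0.97 and −1.28.

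MMP3 and MMP10, proteases that digest the matrix, had the largest log2FC among genes above 50 CPM after ICM. MMP3, stromelysin 1 (chromosome 11, 102706532 to 102714340), had 16.1, 8.77, 613 and 526 CPM, a 45.0-fold increase (log2FC 5.49, SE 0.24, adjusted p = 1.72e-08). MMP1, the interstitial collagenase, rose from 75.2 and 42.6 to 949.5 and 824 CPM (3.91), and MMP10, stromelysin 2, from 2.08 and 0.752 to 67.5 and 62.1 CPM (5.42, and 6.43 without control replicate 1). MMP12, a macrophage elastase near the detection limit (0.0594, 0, 2.32 and 2.01 CPM), also rose, and all 4 genes lie on chromosome 11. Of the 18 genes of this list 4 were higher (22.2%) and 5 lower (27.8%), where 8.85% and 13.2% of all genes were. The inhibitors TIMP3 (409, 413, 121 and 108 CPM, −1.85) and TIMP2 (204, 247, 124 and 118 CPM, −0.89) fell, while TIMP1 had 352, 251, 431 and 390.5 CPM (0.44, adjusted p = 0.0518, and 0.72 without control replicate 1). MMP2, the gelatinase, had 401, 479, 297 and 319 CPM (−0.51), below the cutoff, and −0.63 without control replicate 1.

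Of 14 coagulation and plasminogen genes 5 were higher (35.7%) and 2 lower (14.3%), where 8.85% and 13.2% of all genes were. SERPINF1 (−1.31) was among the lower ones. The list had a median log2FC of 0.038 that turned negative without ICM replicate 1. F3, tissue factor, rose from 876 and 924 to 2056 and 1828 CPM (1.11), TFPI2 from 138 and 97.1 to 482 and 412 CPM (1.92) and SERPINE2 from 58.2 and 42.9 to 162 and 145 CPM (1.6). The protease gene PLAU was not called, with 534, 338, 444 and 359 CPM (−0.12, adjusted p = 0.673). Of 11 hyaluronan genes 3 were lower (27.3%) and 1 was higher (9.09%). Their median log2FC was 0.19, and 0.16 to 0.30 with a library left out. The lower ones were the receptor HMMR, which is also a spindle protein (−3.51), the synthase HAS2, which went from 58.7 and 38.3 to 4.31 and 4.56 CPM (−3.46), and CEMIP, which depolymerizes hyaluronan and went from 1817 and 1420.3 to 279 and 227 CPM (−2.68).

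Contractile genes, targets of serum response factor (SRF), were lower in 20 of 27 cases, with a median log2FC of −0.81. ACTA2, smooth muscle actin and the usual myofibroblast marker, fell from 486 and 424 to 76.0 and 74.5 CPM (−2.60), ACTG2 from 469.9 and 439.7 to 67.6 and 62.8 CPM (−2.80) and the smooth muscle myosin MYH11 from 65.6 and 74.3 to 7.65 and 9.05 CPM (−3.07). TAGLN fell by 2.81, with 2232 of its exon bases shared with PCSK7. The general cytoskeleton fell less: FLNA from 15064 and 11961 to 7828 and 7547 CPM (−0.81) and ACTB from 5332 and 4834 to 3071 and 2911 CPM (−0.77). MYOCD, the coactivator that switches smooth muscle genes on, was the exception and rose from 42.3 and 58.0 to 87.8 and 102 CPM (0.92). Of 23 YAP and TEAD genes 3 were lower, led by ANKRD1 (15.0, 10.2, 1.34 and 0.939 CPM, −3.43), and 1 was higher, shares of 13% and 4.35% beside 13.2% and 8.85% of all genes. The classic target CCN2 had 937, 1261, 1002 and 913 CPM (−0.20, adjusted p = 0.366). Of 14 tubulin and related genes 4 were lower (28.6%), led by the microtubule destabilizer STMN1 (67.8, 69.4, 13.4 and 11.2 CPM, −2.47). The 1 higher gene (7.14%), TUBA4A, rose from 10.5 and 8.10 to 72.5 and 68.9 CPM (2.91). The median log2FC of this list was −0.15, and −0.40 to 0.080 with a library left out.

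**Figure D4:**
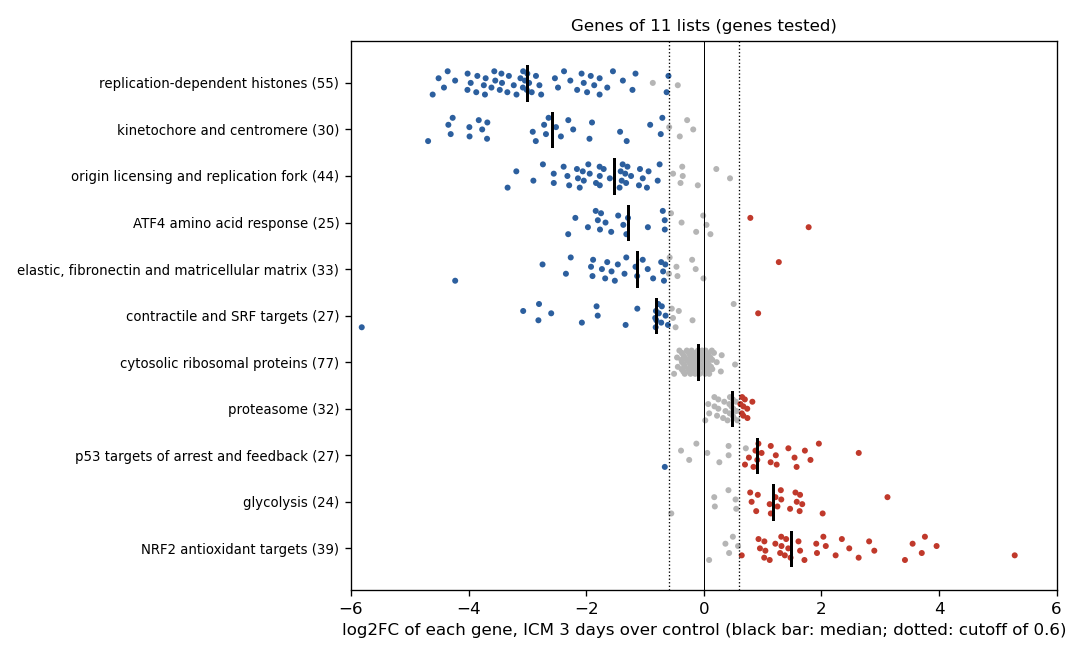
Every tested gene of 11 lists by its log2FC after 3 days of ICM (red, higher; blue, lower; grey, not called), with the list's median as a black bar and the cutoff of 0.6 as dotted lines. SPP1, without control counts, lies outside the axis. Histones spread around a median of −3.01 and NRF2 targets around 1.48, while the 77 ribosomal protein genes lie within the dotted lines.

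In the senescence-associated secretory phenotype (SASP), senescent cells secrete inflammatory cytokines under NF-κB. Of 21 such genes tested 12 were lower (57.1%, against 13.2% of all genes), and another 10 of the 31 listed had too few counts. The median log2FC was −1.55, and −1.65 to −1.01 with a library left out. Control replicate 1 exceeded control replicate 2 by a median of 0.66 (log2) in this list. The adhesion receptors that NF-κB induces fell, VCAM1 from 149.5 and 171 to 15.0 and 12.7 CPM (−3.52) and ICAM1 from 42.0 and 36.6 to 5.24 and 5.03 CPM (−2.93). IL6 went from 7.25 and 4.59 to 2.18 and 1.88 CPM (−1.55), IL1A from 3.74 and 4.51 to 0.649 and 1.34 CPM (−2.10) and the chemokine CCL2 from 7.84 and 6.93 to 2.60 and 2.01 CPM (−1.67). TNFAIP3, an NF-κB feedback inhibitor, fell from 34.8 and 16.6 to 5.75 and 4.49 CPM (−2.32, and −1.67 without control replicate 1). CXCL8, interleukin 8, had 23.2, 2.42, 8.62 and 6.24 CPM, so the controls lay on either side of the ICM libraries, and the log2FC turned from 1.64 with control replicate 1 left out to −1.65 with control replicate 2 left out. TNFAIP6, which binds hyaluronan, was the only member that rose (13.1, 6.60, 25.5 and 23.5 CPM, 1.29), and 1.90 without control replicate 1, where 4 members were higher. PTX3, a pattern recognition protein, fell from 130.4 and 87.8 to 14 and 13.2 CPM (−3.01), while clusterin CLU rose from 171 and 136 to 482 and 417 CPM (1.55).

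Growth factor genes changed by member. FGF2 rose from 70.3 and 57.6 to 159.7 and 158 CPM (1.31), with 704 exon bases shared with NUDT6, while FGF5 fell from 99.9 and 113 to 26.7 and 32.7 CPM (−1.84). The receptor KIT fell from 17.9 and 20 to 4.68 and 4.96 CPM (−1.97) as its ligand KITLG rose from 63.3 and 57.1 to 136 and 129 CPM (1.13), and MET, the HGF receptor, fell from 101 and 82.4 to 32.4 and 27.4 CPM (−1.61). Of 28 genes of these families 6 were higher (21.4%) and 9 lower (32.1%), where 8.85% and 13.2% of all genes were. BMP2 rose from 22.5 and 14.4 to 83.5 and 76.0 CPM (2.10) and BMP4 fell from 30.1 and 40.8 to 13.3 and 10.5 CPM (−1.57). WNT2, a ligand of lung mesenchyme, fell from 10.2 and 12 to 1.02 and 0.536 CPM (−3.76, and −4.35 without ICM replicate 1). Of 24 WNT pathway genes 9 were lower (37.5%) and 1 was higher (4.17%). NOTCH1 fell from 111 and 82.2 to 47.0 and 39.0 CPM (−1.17). IGFBP5, with the largest decrease in CPM after FN1, went from 21400.0 and 22299 to 11414 and 12654 CPM (−0.86), and IGFBP3 fell by 1.18.

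Lists of the basic expression machinery differed. None of the 77 cytosolic ribosomal protein genes tested was called by edgeR, where 8.85% and 13.2% of all genes were (0 to 1 higher and 0 to 3 lower with a library left out), and DESeq2 called none either. Their median log2FC was −0.09, and at an unadjusted p under 0.05, 14 were lower and none higher. RPLP0 had 259, 205, 196 and 168 CPM (−0.35, adjusted p = 0.0879). Of 33 genes of RNA polymerase II and elongation 4 were higher (1 to 7 with a library left out) and of 48 nuclear oxidative phosphorylation genes 3 (0 to 6), shares of 12.1% and 6.25%. None of either list was lower by edgeR or DESeq2, nor at an unadjusted p under 0.05. Of 38 ribosome biogenesis genes 6 (15.8%) were lower (3 to 9 with a library left out) and 1 was higher (0 to 3). Proteasome genes had a median log2FC of 0.48, and 9 of 32 passed the cutoff (14 without control replicate 1, 2 without control replicate 2), PSMB5 at 52.9, 44.4, 89.4 and 83.4 CPM (0.83) among them.

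Of the nuclear noncoding RNAs, NEAT1, the scaffold of paraspeckles (chromosome 11, 65190269 to 65213009), showed the largest rise in CPM, from 8549 and 8942 to 18334 and 13821 CPM (log2FC 0.88, SE 0.16, adjusted p = 0.00179). MALAT1 had 265, 479, 413 and 534 CPM and the groups overlapped (0.35, adjusted p = 0.266, and 0.81 without control replicate 2). RMRP, an abundant nucleolar RNA, was counted at 25446, 24102, 24629 and 25910.0 CPM (0.03, adjusted p = 0.906). KCNQ1OT1, an imprinted antisense RNA, fell from 693 and 769 to 389 and 489.7 CPM (−0.74), or by 0.58 and short of the cutoff without ICM replicate 1.

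The share of genes that fell was higher among long genes. Among genes spanning up to 100 kb 12% were lower and 9.17% higher, and among those over 100 kb 18.7% and 7.29%. The share of lower genes was smallest between 1 and 10 kb, at 9.17%, and largest over 400 kb, at 22.2%, where 10.2% were higher. Genes with over 20 exons were lower in 18.7% of cases and genes with 6 to 10 exons in 11.5%. By level, 9.69% were lower up to 1 CPM, 15.0% between 1 and 10 CPM, 12.7% between 10 and 100 CPM and 12% over 100 CPM. By chromosome the share of lower genes ran from 7.93% on chromosome 19 to 18.7% on chromosome 6. These shares are descriptions over genes, which are not independent replicates.

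**Figure D5:**
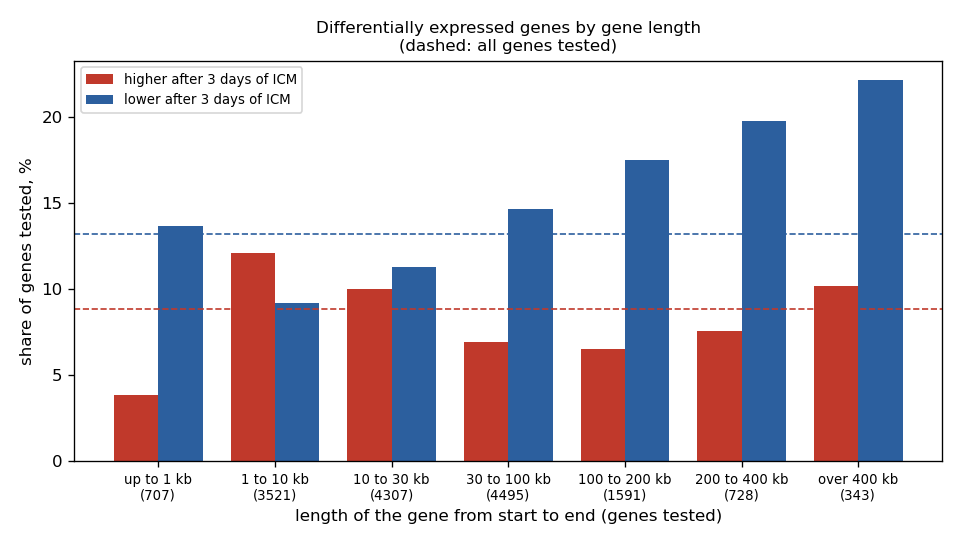
Share of tested genes that were higher (red) or lower (blue) after 3 days of ICM, by the length of the gene from start to end, with the number of genes in brackets and the shares over all genes as dashed lines. The blue bars grow from 9.17% between 1 and 10 kb to 22.2% over 400 kb, while the red bars are tallest, at 12.1%, between 1 and 10 kb.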

How the data were processed

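Factory RNA of IMR90 cells was sequenced as read pairs. Per the labels and file headers, the authors aligned the pairs to hg19 with STAR 2.6.0c and counted them per RefSeq gene with featureCounts 1.6.3, and the deposited values used here are raw counts per gene over exons. Counting ignored strand and required both mates to be mapped, and pairs with several best places were not counted. Groups came from the sample labels, and the 2 libraries of each were compared.

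Counts were normalized by TMM and filtered with filterByExpr (count minimum 10), and the groups were compared in edgeR 4.0.16 (R 4.3.3) by the quasi-likelihood test, with p-values adjusted by Benjamini-Hochberg over all genes tested. Every adjusted p given is from this fit unless DESeq2 (1.42.0) is named. The log2FC is of fitted values, and SE is its standard error. Totals of 12095123 to 21230563 counts and 2 libraries per group limit the precision. The procedure was tested on simulated data. Gene lists were summarized by counts and medians without a test, since the lists and the comparison were chosen with earlier results of these data known. Named genes are up to 10 of each direction over all genes and up to 4 of each direction per list by size of log2FC, from 5 CPM in the higher group. Others were named for their role, some after their values had been seen. Alternatives were other normalizations, filters, thinning, DESeq2, a fit of all 8 libraries, a replicate block and each library left out. Promoter sequences came from RefSeq (GRCh38.p14) and were joined by symbol, without coordinates of hg19. Figures were drawn with matplotlib 3.10.9.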

Additional observations from a re-analysis of the deposited data

How the results depend on the processing

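The count of higher genes ranged from 851 to 1898 and that of lower genes from 1450 to 2170 with each library left out, the lowest being without ICM replicate 1. With a log2FC cutoff of 1, 609 genes were higher and 1259 lower. The other alternatives stayed within 1.5 times the main counts, DESeq2 giving 1135 and 1782. A fit with the replicate number as a block gave 1606 higher and 2309 lower. Same-numbered libraries deviated together with a correlation of 0.196 over only 2 pairs, and the labels do not say that the numbers pair cultures. Of the named genes, MIR663A and MIR663B turned positive without control replicate 2, with log2FC from −3.40 to 0.59 and from −4.04 to 0.051 over the libraries left out, and the cause was not tested. The medians of 8 of 65 gene lists changed sign in at least 1 alternative, and the largest main median of these in size was 0.15. With 2 libraries per group, genes of few counts carry wide errors, and the median SE of a log2FC was 0.19.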

Other observations

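The genes for prostacyclin synthase and thromboxane synthase changed in opposite directions. PTGIS, the prostacyclin synthase, fell from 12.8 and 13.9 CPM in control to 1.44 and 2.15 CPM after ICM (log2FC −2.92), while TBXAS1, the thromboxane synthase, rose from 33.3 and 31.3 to 109 and 113 CPM (1.78). Of 15 prostaglandin genes 4 were higher and 3 lower. Of 31 interferon genes 6 were higher (19.4%) and 4 lower (12.9%), where 8.85% and 13.2% of all genes were. DESeq2 called 3 of them higher and 4 lower. Their median log2FC was 0.26, and 0.18 to 0.31 with a library left out. IFI44L rose from 0.654 and 1.00 to 6.63 and 10.1 CPM (3.35) and OAS3, a sensor of double-stranded RNA, fell from 21 and 21.9 to 2.83 and 4.96 CPM (−2.49). Targets of the aryl hydrocarbon receptor were higher in 6 of 10 cases, among them its feedback repressor TIPARP (75.8, 71.1, 178 and 184 CPM, 1.30, with 673 exon bases shared with an antisense gene) and the monooxygenase CYP1B1 (74.9, 65.7, 142 and 135 CPM, 0.97).

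FOXF1, a transcription factor of lung mesenchyme, rose from 101 and 102 to 179.5 and 174 CPM (0.80). The clock repressor BHLHE40, also a hypoxia target, rose from 17.9 and 13.3 to 47.9 and 45.4 CPM (1.57), while PER2 was at 12.3, 11.3, 13.6 and 12.5 CPM (0.14).

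Control replicate 1 was above control replicate 2 in 50.1% of all genes, in 65.2% of the genes called higher after ICM and in 46.3% of those called lower. It was above in 76.9% of NRF2 targets, 83.3% of glycolysis genes and 81.0% of SASP genes, and likewise in 80% of replication-dependent histones and 72% of ATF4 genes, which fell. ICM replicate 1 was above ICM replicate 2 in 53.9%, 65.7% and 45.9% of all, higher and lower genes, and in 74.4% of NRF2 targets, 87.5% of glycolysis genes and 88% of ATF4 genes. Whether this gap has a part in the log2FC of these groups was not tested.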
